A study of Mus musculus with 8 samples.

Results

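The cell cycle genes described here are those that run DNA replication and mitosis, together with the cyclins, kinases and inhibitors of G1, the growth phase before replication. The list named 59 genes, and a gene was measured where a probe set carried its symbol alone in the platform annotation. This left 56 genes, read from 58 probe sets, out of 22180 genes in all. Ccnb1, Rfc4 and Ccne2 had no such probe set, so no expression value is given for them. For a gene with more than 1 probe set, the brightest on average was used. The RNA was from B-1a cells, innate-like B cells that live mainly in the peritoneal and pleural cavities, which were sorted from the peritoneal cavity with fluorescent antibodies. In the CD19cre/+PTIPflox/flox mice (KO), Cre that is active in the B lineage removes the floxed gene for PTIP, Paxip1. The controls, CD19cre/+PTIP+/+ (WT), had that Cre allele too, but no floxed Paxip1, so any effect of Cre itself is in both groups. All mice were 5 weeks old, and 29 KO and 22 WT mice were divided into 4 pools per genotype, with 1 Affymetrix array per pool. Values are log2 expression values made by RMA, which corrects for background, gives every array the same distribution of values and reduces each probe set to a single value. A pool mixes several mice, and how many mice went into each pool is unknown here.

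A dividing cell loads MCM helicases onto replication origins in G1, fires them in S phase with CDC45 and the GINS complex, copies its DNA with polymerases held by the PCNA clamp, and then separates its chromosomes on a spindle. D-type cyclins with CDK4 and CDK6 start this sequence by phosphorylating the retinoblastoma protein, which releases E2F transcription factors, and cyclin B with CDK1 drives mitosis. Genes of replication are mostly transcribed at the G1 to S boundary and genes of mitosis in G2 and M phase. Their RNA in a bulk sample therefore follows the share of cells in each phase as well as the level in each cell. B-1a cells maintain themselves by slow division in the adult peritoneal cavity.

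Paxip1, the deleted gene, was read at 4.66, 4.48, 4.79 and 3.58 in KO pools 1 to 4, against 6.87, 7.13, 7.16 and 7.03 in WT pools 1 to 4. Its difference was -2.67 (SE 0.22, limma, adjusted p = 9.96e-05), and an exact two-sided permutation test gave p = 0.0286, the smallest that 70 assignments of the arrays allow. Whether the probes fall inside the deleted exons is unknown here, and the labels were checked only as far as this drop shows. The pan-B cell genes Ms4a1, Cd79a and Cd79b and the B-1a genes Cd5 and Bhlhe41 differed by 0.02, -0.04, -0.01, 0.04 and -0.02 between KO and WT, none past the test, while Itgam (CD11b) and Zbtb32, also on the B-1a list, were lower in KO by the test (-1.68 and -1.11). Spn (CD43), the remaining B-1a marker, differed by -0.52 and was not called (limma, adjusted p = 0.121). For 3 of the 5 B-1a markers, Itgam, Zbtb32 and Spn, all KO pools lay below all WT pools, against 5.09% of all genes. Of the 8 pan-B cell markers 1, Cd22, was called lower in KO (-0.59, limma, adjusted p = 0.0170), and Blk, not called, differed by -0.24 with all KO pools below all WT pools. Of 14 T cell markers 13 had higher means in KO than in WT. Their mean was 7.27, 7.07, 5.28 and 5.82 in KO pools 1 to 4, against 5.54, 5.64, 4.89 and 4.67 in WT pools 1 to 4. The exception was Cd2, which mouse B cells also make, and 0 of the 14 were called by limma, with 10 at an unadjusted p under 0.05. All 11 NK cell markers had higher means in KO than in WT, 8 of them at an unadjusted p under 0.05 in limma, and 2, Klrb1c and Klrd1, were called higher. The NK cell marker mean was 5.72, 5.44, 4.48 and 4.85 in KO pools 1 to 4, against 4.36, 4.55, 4.08 and 3.70 in WT pools 1 to 4. Of 10 macrophage markers 7 had lower means in KO than in WT and 3 higher. At an unadjusted p under 0.05 in limma there were 4, and 1, Cd68, was called lower. Of all genes 1.49% were called higher and 2.10% lower in KO, and 15.3% had an unadjusted p under 0.05. The array medians lay between 3.68 and 3.74, and values near or below that level flatten out, which understates differences of dim genes.

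Of the 56 measured genes 1 was called (limma, Benjamini-Hochberg adjusted p under 0.05 over all genes): the G1 kinase gene Cdk6, which rose. Of all 22180 genes 3.59% were called, 1.49% higher and 2.10% lower in KO, so the members' count lay near the background. The median difference of the 56 genes was 0.04 on the log2 scale, against 0.02 for all genes, with 36 genes positive and 20 negative. At an unadjusted p under 0.05 there were 6 genes of 56, against 15.3% of all genes. The pools did not overlap for 2 of the 56 genes, both of them higher in KO, against 10.5% of all genes, 5.41% higher and 5.09% lower in KO. The 95% confidence interval of the difference stayed within 0.5 of 0 for 30 genes and within 1 of 0 for 54, the exceptions being Ccnb2 (-0.55 to 1.10) and Ube2c (-0.47 to 1.23). The precision was uneven: the median width of the interval was 0.50 for the replication genes, 0.99 for the mitosis genes and 0.47 for all genes.

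**Figure D1:**
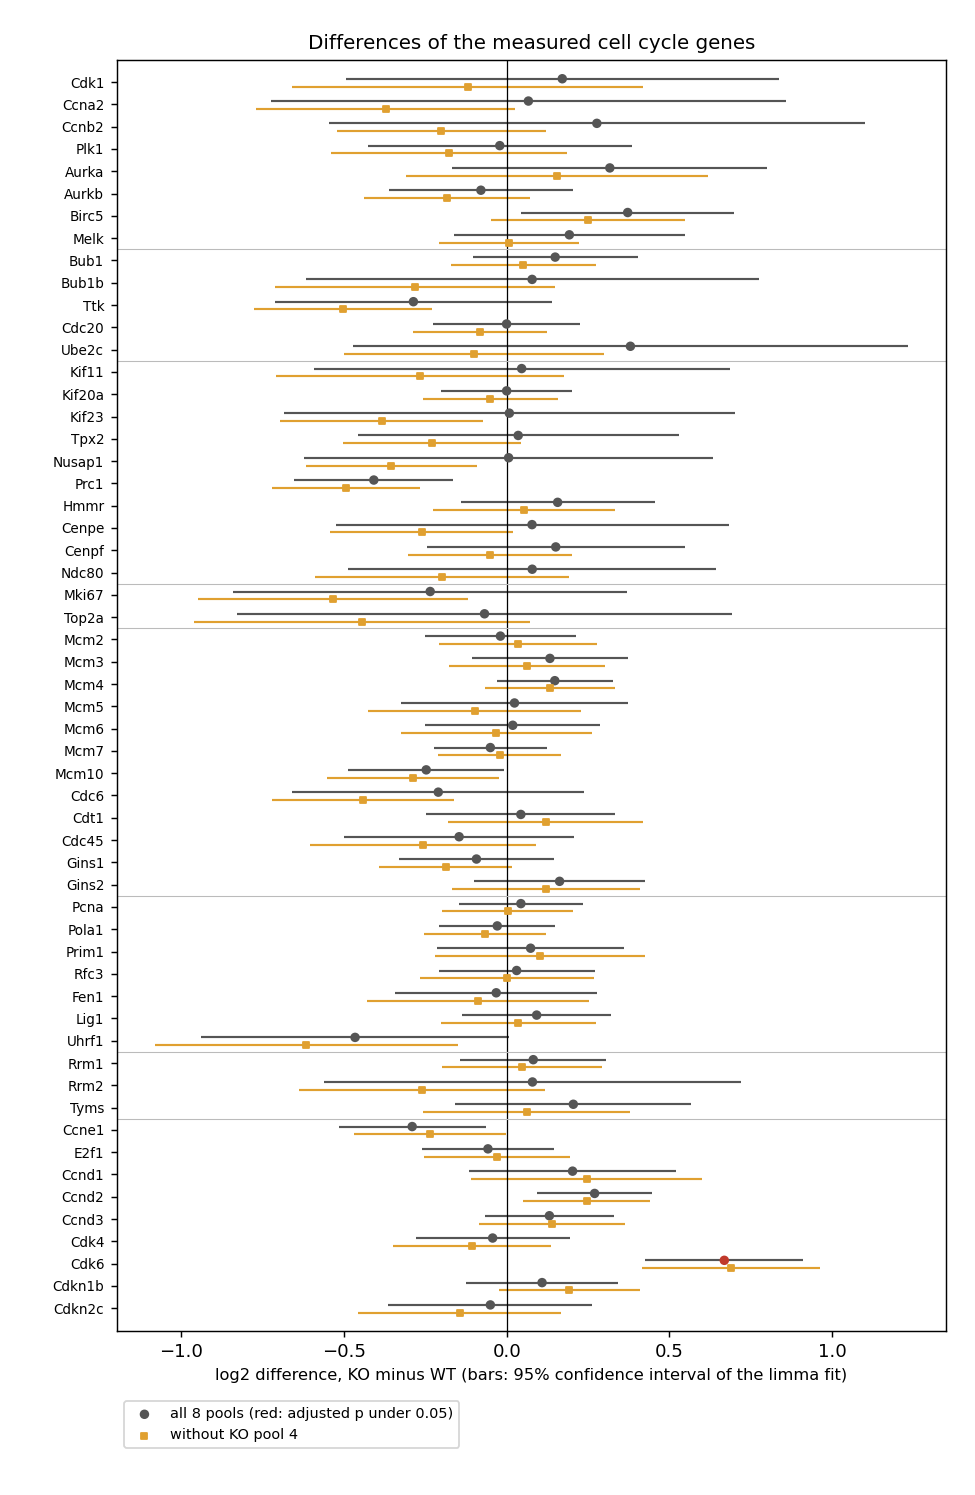
Log2 difference, KO minus WT, for each of the 56 measured genes, grouped by role and separated by grey lines, with the 95% confidence interval of the limma fit over all 8 pools (circles) and without KO pool 4 (squares). Cdk6 is the only gene called over all 8 pools, and the intervals of mitosis genes such as Ccnb2 and Ube2c are wide and move downward when KO pool 4 is left out.

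The G1 genes held the one called member. Cdk6, whose kinase partners with D-type cyclins and is the main such kinase of many blood cells, was read at 6.95, 6.92, 6.72 and 6.78 in KO pools 1 to 4, against 6.27, 5.89, 6.20 and 6.34 in WT pools 1 to 4. All KO pools lay above all WT pools. The rise was 0.67 (SE 0.11, 95% interval 0.43 to 0.91, limma, adjusted p = 0.00693), or 1.59-fold. The T cell marker means were highest in KO pools 1 and 2, which also had the highest Cdk6 values. With the mean T cell marker level added to the model, the difference was 0.63 and the call was lost (limma, adjusted p = 0.0953), as it was without KO pools 1 and 2 (0.57, adjusted p = 0.0993). The part of T cells in the Cdk6 difference was not tested beyond these fits.

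Ccnd2, a D-type cyclin induced in B cells by receptor signals and a partner of CDK4 and CDK6, stood at 10.20, 10.29, 10.37 and 10.38 in KO pools 1 to 4, against 10.06, 9.94, 10.08 and 10.07 in WT pools 1 to 4. The pools did not overlap, but the difference of 0.27 (SE 0.08) did not pass the test (limma, adjusted p = 0.111). The other D-type cyclins Ccnd1 and Ccnd3 differed by 0.20 and 0.13, with KO and WT pools overlapping (adjusted p in limma = 0.575 and 0.557). Cdk4, the kinase closest to Cdk6, averaged 8.17 ± 0.17 in KO and 8.21 ± 0.14 in WT (SD, n = 4 pools each), a difference of -0.04 with a 95% interval from -0.28 to 0.19.

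Cyclin E1 drives entry into S phase. Its gene, Ccne1, was read at 7.34, 7.25, 7.49 and 7.14 in KO pools 1 to 4, against 7.70, 7.46, 7.51 and 7.73 in WT pools 1 to 4. The highest KO pool lay above the lowest WT pool, and the difference of -0.29 (SE 0.10) was not called (limma, adjusted p = 0.188). The inhibitors Cdkn1b (p27), which restrains CDK2, and Cdkn2c (p18), which binds CDK4 and CDK6, differed by 0.11 and -0.05. Their intervals ran from -0.13 to 0.34 and from -0.36 to 0.26. The transcription factor gene E2f1, an activator of replication genes, averaged 4.42 ± 0.07 in KO and 4.47 ± 0.15 in WT (SD, n = 4 pools each). Over the 9 G1 genes, 5 differences were positive and 4 negative, with a median of 0.11.

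**Figure D2:**
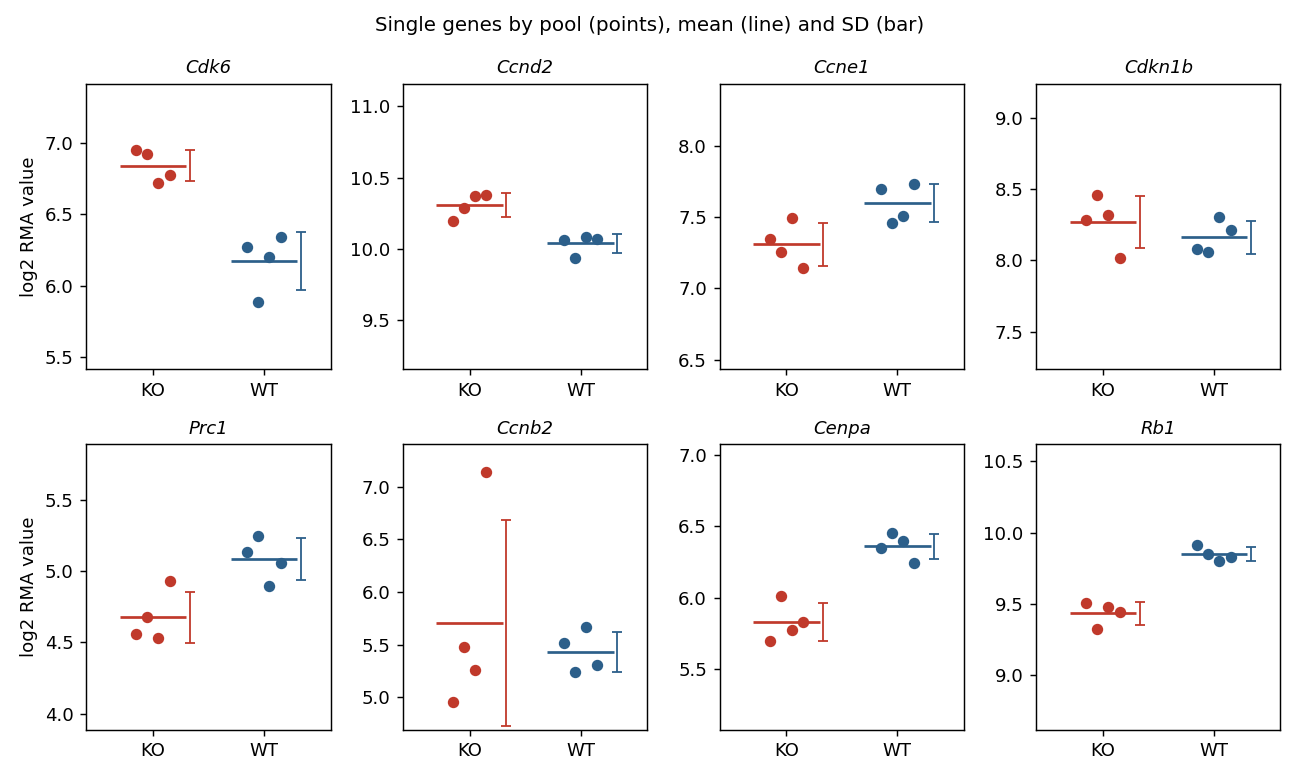
Log2 RMA values of 8 genes in the KO pools (left) and WT pools (right) of each panel, with the mean as a line and the SD (n = 4) as a bar; every panel has its own y axis. The groups do not overlap for Cdk6, Ccnd2, Cenpa and Rb1, while 1 KO pool of Ccnb2 lies at 7.14, far above the other 3.

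Of the 25 measured genes of mitosis, including the chromosome genes Mki67 and Top2a, 0 were called by limma, against 3.59% of all genes. At an unadjusted p under 0.05 there were 2, against 15.3% of all genes. The median difference of the 25 genes was 0.07, with 18 positive and 7 negative. Birc5, which encodes the chromosomal passenger protein survivin, was read at 4.38, 4.41, 4.54 and 4.93 in KO pools 1 to 4, against 3.94, 4.02, 4.44 and 4.36 in WT pools 1 to 4. KO pools 1 and 2 lay below WT pool 3, so the groups overlapped, and the difference was 0.37 (SE 0.15, limma, adjusted p = 0.255). Aurka, a centrosome kinase, was read at 5.00, 4.32, 4.78 and 5.35 in KO pools 1 to 4, against 4.55, 4.04, 4.70 and 4.90 in WT pools 1 to 4, with overlapping groups (difference 0.32, limma, adjusted p = 0.560). Melk, a kinase gene of dividing cells, and Ccnb2, a mitotic cyclin, differed by 0.19 and 0.28. Aurkb, Cdk1, Ccna2 and Plk1 differed by -0.08, 0.17, 0.07 and -0.02.

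Prc1, which bundles microtubules of the central spindle during cytokinesis, came closest to a call among the mitosis genes. It stood at 4.56, 4.68, 4.53 and 4.93 in KO pools 1 to 4, against 5.14, 5.24, 4.90 and 5.06 in WT pools 1 to 4. Only KO pool 4 overlapped the WT pools. The difference was -0.41 (SE 0.11, limma, adjusted p = 0.0774). KO pool 4 was singled out after the values were seen. It was the highest KO pool for all 25 mitosis genes, so leaving it out lowers each of their differences. Without KO pool 4 Prc1 differed by -0.49 and was called (limma, adjusted p = 0.0351). Without KO pool 4, 2 of the 56 members were then called, Cdk6 and Prc1, against 2.41% of all genes. Adding the T cell marker mean to the model of all 8 pools gave Prc1 -0.43 and no call (limma, adjusted p = 0.259). That fit called 287 of all genes, against 797 without the term.

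Ttk, the spindle checkpoint kinase MPS1, was read at 4.06, 4.28, 4.09 and 5.01 in KO pools 1 to 4, against 4.55, 4.42, 4.88 and 4.75 in WT pools 1 to 4. Without KO pool 4 its KO pools lay below all WT pools, yet the difference then, -0.50, did not pass (limma, adjusted p = 0.0698). The checkpoint kinase Bub1 stood at 3.30, 3.35, 3.61 and 3.81 in KO pools 1 to 4, against 3.38, 3.44, 3.30 and 3.36 in WT pools 1 to 4, all near the array median. Ube2c, the ubiquitin-conjugating partner of the anaphase-promoting complex, and Bub1b, a checkpoint protein gene, differed by 0.38 and 0.08, and Cdc20, the activator of that complex, by 0.00 (interval -0.23 to 0.23).

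Among the other spindle genes, Hmmr was read at 2.54, 2.63, 2.77 and 3.07 in KO pools 1 to 4, against 2.54, 2.36, 2.88 and 2.60 in WT pools 1 to 4, below the array median throughout. Cenpf and Ndc80, kinetochore genes, differed by 0.15 and 0.08. The proliferation marker Mki67 stood at 5.54, 5.79, 5.92 and 6.94 in KO pools 1 to 4, against 6.28, 5.78, 6.65 and 6.42 in WT pools 1 to 4. The topoisomerase gene Top2a, which untangles sister chromosomes, stood at 5.31, 5.89, 5.20 and 6.97 in KO pools 1 to 4, against 5.79, 5.39, 6.37 and 6.10 in WT pools 1 to 4. In both genes KO pool 4 was the highest of all 8 pools and a KO pool the lowest.

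The KO pools were spread out for the mitosis genes, with 1 pool above the rest. KO pool 4 held the highest value of all 8 pools for 22 of the 25 mitosis genes and for 34 of all 56 members, against 16.8% of all genes. It lay above each of the other KO pools for all 25, against 27.8% of all genes. These counts, like the choice of KO pool 4, were made after the values were seen. Ccnb2 was read at 4.96, 5.47, 5.26 and 7.14 in KO pools 1 to 4, against 5.51, 5.24, 5.66 and 5.31 in WT pools 1 to 4. Ube2c was read at 4.24, 4.33, 4.11 and 6.14 in KO pools 1 to 4, against 4.17, 3.92, 4.80 and 4.41 in WT pools 1 to 4. KO pools 1 to 3 overlapped the WT pools for Ube2c, as did KO pools 2 and 3 for Ccnb2, where KO pool 1 was the lowest of all, and KO pool 4 stood above every other pool for both genes. Ccna2, the S and M phase cyclin A2, was read at 5.46, 5.80, 5.23 and 7.25 in KO pools 1 to 4, against 5.77, 5.50, 6.19 and 6.01 in WT pools 1 to 4.

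Measured against the mean of the other KO pools, KO pool 4 was higher by a median of 1.06 over the mitosis genes, 0.19 over the replication genes and 0.00 over all genes. That gap was at least 0.5 for 22 of the 56 members, 18 of them mitosis genes, against 2.29% of all genes. It was at least 1 for 14 members, which were 14 of the 37 genes on the array with such a gap (0.167% of all genes). Kif23, a kinesin of cytokinesis, Bub1b, Nusap1, a spindle assembly gene, and Cenpe, a kinetochore kinesin, had gaps of 1.57, 1.44, 1.44 and 1.36. Mitosis genes with small gaps were Kif20a (0.20), Cdc20 (0.33) and Prc1 (0.34). In no other pool of either genotype did more than 6 members lie 0.5 above the mean of the pools of the same genotype, and those 6, all mitosis genes, were in WT pool 3. WT pool 3 was also the second highest pool for 13 of the 22 mitosis genes that peaked in KO pool 4.

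**Figure D3:**
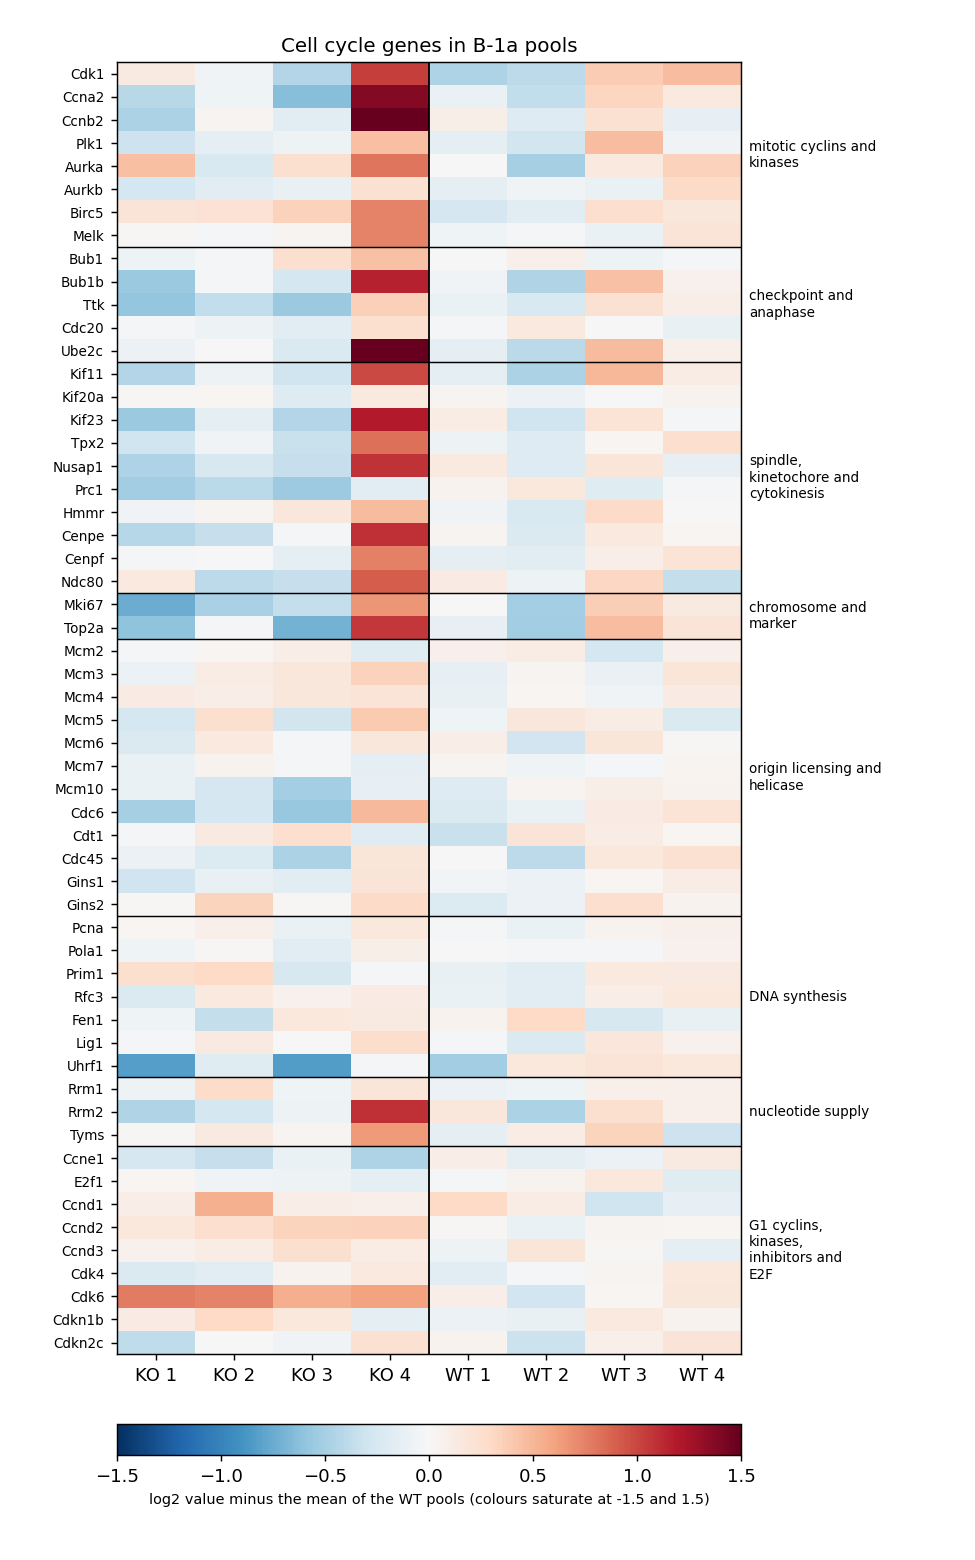
Log2 values of the 56 measured genes in each pool, less the mean of the WT pools, with the KO pools on the left, the WT pools on the right and the genes grouped by role. KO pool 4 is red across most mitosis genes, and Cdk6 is red in all KO pools.

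The median SD of the mitosis genes was 0.54 among the KO pools and 0.22 among the WT pools, and 0.15 among KO pools 1 to 3. Over all genes it was 0.14 in KO and 0.14 in WT. Without KO pool 4, 20 of the 25 mitosis differences were negative and 5 positive, with a median of -0.20, and Mki67 differed by -0.53 (limma, adjusted p = 0.216). The direction of the mitosis genes as a group thus turned with that 1 pool. The pool was picked for its high values in these genes, so a downward shift without it was built in. KO pool 4 did not have the highest T cell marker mean (5.82, below the 7.27 and 7.07 of KO pools 1 and 2), and its mean of the 8 pan-B cell markers, 10.1, lay among those of the other pools, 9.96 to 10.2. Its mean of the 5 B-1a markers, 7.09, was the lowest of all pools, below 7.23 to 7.33 in the other KO pools and 7.81 to 7.95 in the WT pools, and its Itgam value of 5.24 was below the 5.62 to 5.76 of the other KO pools. Its Paxip1 value, 3.58, was the lowest of all pools, whereas on the second Paxip1 probe set its 3.57 lay between 2.75 and 4.02, the lowest and highest of the other KO pools. In a bulk sample more dividing cells and more of these transcripts per cell cannot be told apart, and the part of other cell types in this gap was not tested beyond these values.

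**Figure D4:**
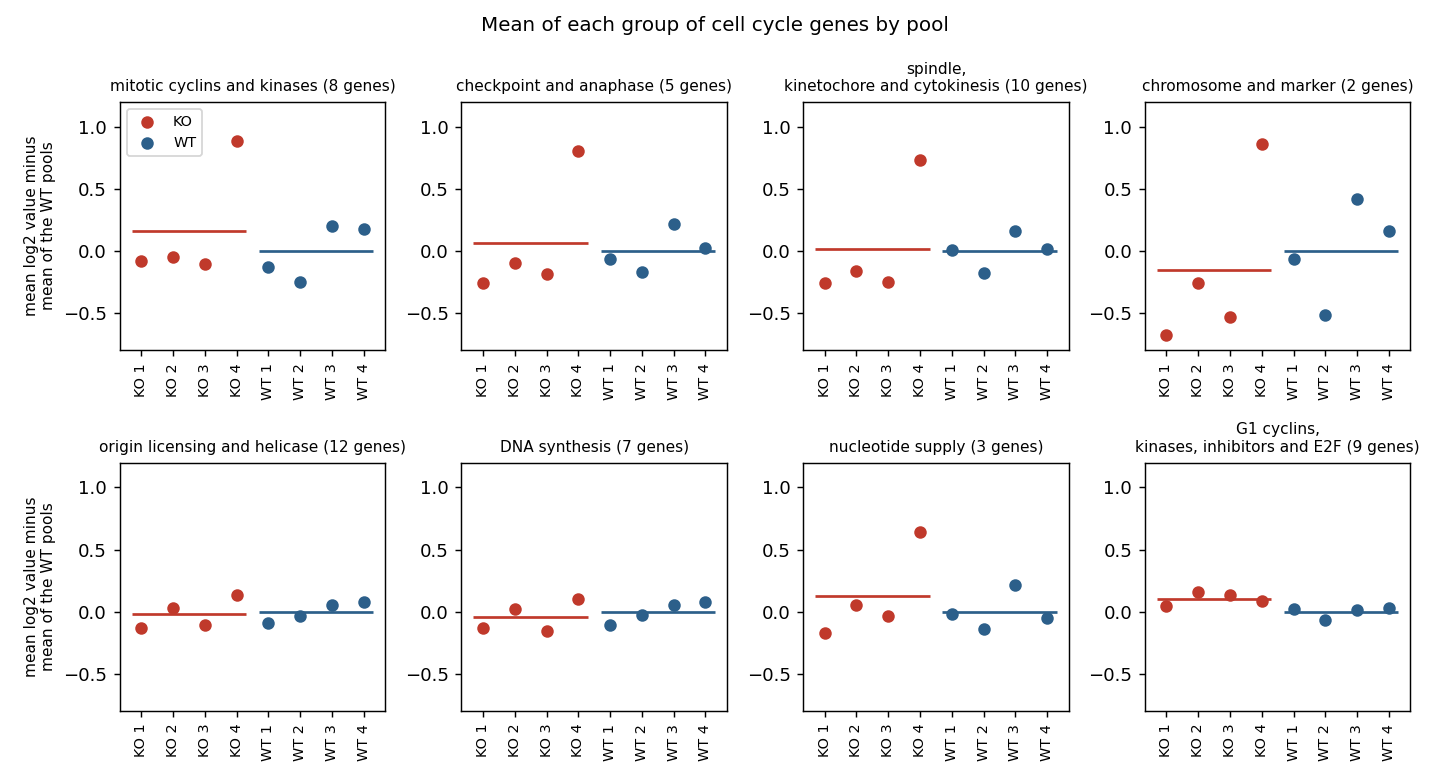
Mean log2 value of each role group in each pool, less the mean of the WT pools, with KO pools (red) left of WT pools (blue) and lines at the group means. KO pool 4 lies 0.73 to 0.89 above the WT mean in the 4 panels of mitosis genes, 0.64 above it in the panel of nucleotide supply, 0.14 and 0.11 above it in those of origin licensing and DNA synthesis, and near the other KO pools in the panel of G1 genes.

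Promoters are shown for a few members with large and with small gaps in KO pool 4, picked after the values were seen. The picks differ in role as well as in gap, so their letters cannot be read against the gap alone. RefSeq promoters (build GRCm38.p6, 250 bases before to 50 after the start) were listed for 49 of the 59 genes, of which 47 were measured, and the shares below also count the promoters of Ccnb1 and Rfc4. Many mitosis genes are known to carry a CHR element, bound by the MuvB complex and searched here as TTTGAA. They often also have CCAAT boxes, bound by NF-Y. Many replication genes have E2F sites, for which the first form searched was TTCCCGC. The other forms searched were TTGGCGC, and TTCGCGC beside it, and also the form TTGCCGC. Each motif was searched on both strands, and E2F letters may overlap one another or a CCAAT box. The sequences below run from 170 bases before to 20 after the start, 5′ to 3′, with matches in capitals. Ccnb2, Ube2c and Top2a are mitosis genes that were high in KO pool 4, Mcm5 and Mcm6 are helicase genes with gaps of 0.49 and 0.20 in KO pool 4 (Mcm5 was also highest there), and Cdk6 is the called member.
Ccnb2, chr9:70421535-70421724, - strand: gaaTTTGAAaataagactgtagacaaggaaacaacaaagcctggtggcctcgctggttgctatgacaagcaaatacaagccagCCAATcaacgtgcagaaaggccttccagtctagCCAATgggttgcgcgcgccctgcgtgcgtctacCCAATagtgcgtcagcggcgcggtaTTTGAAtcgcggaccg
Ube2c, chr2:164769759-164769948, + strand: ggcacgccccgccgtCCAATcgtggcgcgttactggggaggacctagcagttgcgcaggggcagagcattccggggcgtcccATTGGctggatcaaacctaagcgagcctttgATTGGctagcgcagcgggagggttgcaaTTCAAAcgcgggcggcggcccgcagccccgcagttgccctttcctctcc
Top2a, chr11:99024170-99024359, - strand: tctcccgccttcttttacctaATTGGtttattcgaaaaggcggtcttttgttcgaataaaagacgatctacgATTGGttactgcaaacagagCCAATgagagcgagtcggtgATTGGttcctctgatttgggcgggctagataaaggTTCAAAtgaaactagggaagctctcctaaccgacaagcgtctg
Mcm5, chr8:75109339-75109528, + strand: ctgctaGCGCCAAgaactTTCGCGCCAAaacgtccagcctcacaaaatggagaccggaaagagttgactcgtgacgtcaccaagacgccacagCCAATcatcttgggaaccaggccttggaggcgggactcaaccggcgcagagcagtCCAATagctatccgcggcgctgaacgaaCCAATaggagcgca
Mcm6, chr1:128359686-128359875, - strand: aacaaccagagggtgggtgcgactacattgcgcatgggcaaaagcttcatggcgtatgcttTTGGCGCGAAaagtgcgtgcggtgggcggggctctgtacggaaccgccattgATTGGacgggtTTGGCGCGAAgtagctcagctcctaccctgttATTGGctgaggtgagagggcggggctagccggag
Cdk6, chr5:3343723-3343912, + strand: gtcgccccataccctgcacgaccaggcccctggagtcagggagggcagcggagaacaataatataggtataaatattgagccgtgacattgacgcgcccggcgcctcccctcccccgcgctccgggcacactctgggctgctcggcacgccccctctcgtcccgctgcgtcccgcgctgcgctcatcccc

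With the start counted as base 1, Ccnb2 had a CHR match that began at base 5 and another that began 167 bases before the start, with CCAAT matches beginning 21, 54 and 87 bases before it. Ube2c and Top2a had a CHR match on the other strand that began 29 and 23 bases before the start. Mcm6 and Mcm5 had E2F letters and CCAAT boxes in the printed stretch and no CHR match, and Cdk6 had none of the letters searched there. A gene was counted if any of its listed promoters held a match. Of 22 mitosis genes with a listed promoter 72.7% held a CHR match, of 20 replication genes 15%, of 7 G1 genes 0%, and of all 27025 genes with a listed promoter 20.2%. E2F letters were found in 18.2% of the mitosis genes, 75% of the replication genes and 10.9% of all genes. CCAAT boxes were found in 81.8% of the mitosis genes, 70% of the replication genes and 41.1% of all genes. Among members whose KO pool 4 lay at least 0.5 above the mean of the other KO pools, 13 of 20 with a promoter held a CHR match, against 6 of 27 of the other members. This split was made after the values were seen and largely repeats the split by role, since 18 of all 22 members with such a gap are mitosis genes. Rrm2, with a gap of 1.36, is 1 of the 3 nucleotide supply genes, of which 0 held a CHR match. Whether CHR matches go with the gap within a role was not tested. A match is a run of letters and not a measured binding site.

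**Figure D5:**
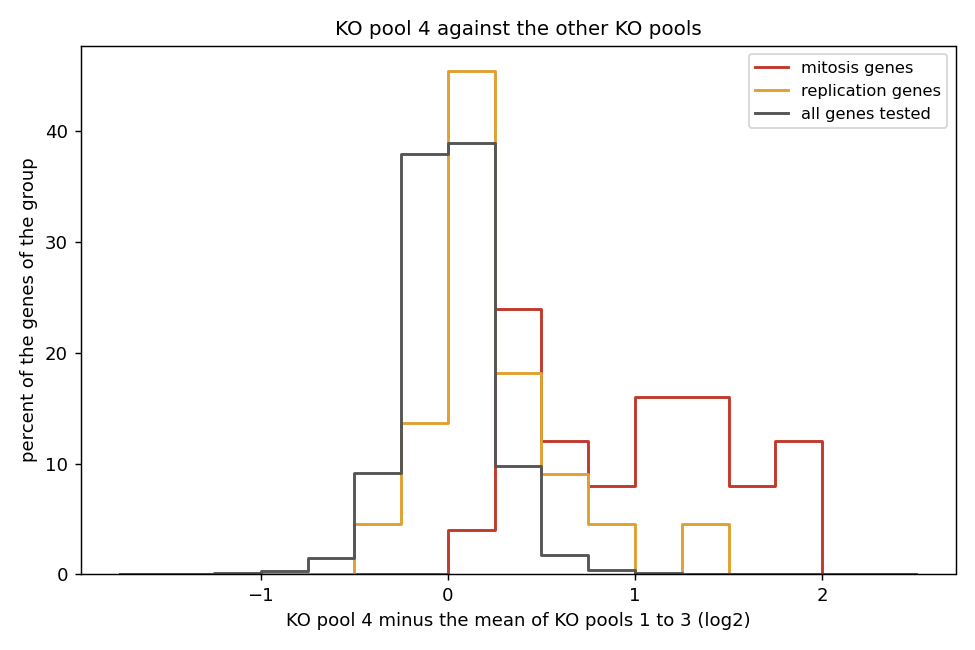
Distribution of the log2 gap between KO pool 4 and the mean of KO pools 1 to 3, in bins of 0.25, as a percent of the 25 mitosis genes, the 22 replication genes and all 22180 genes. The mitosis genes lie above 0 throughout with a median of 1.06, against medians of 0.19 for the replication genes, which lie mostly above 0, and 0.00 for all genes.

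The replication genes had no called difference, and their median SD was 0.18 in KO and 0.17 in WT. Of 22 genes 0 were called by limma, against 3.59% of all genes. Only 1, Mcm10, had an unadjusted p under 0.05, against 15.3% of all genes. The median difference was 0.03, with 13 positive and 9 negative, and 18 intervals stayed within 0.5 of 0. Mcm10, which helps to activate the loaded helicase, was read at 3.70, 3.55, 3.29 and 3.68 in KO pools 1 to 4, against 3.61, 3.84, 3.89 and 3.85 in WT pools 1 to 4, near the array median. KO pools 1 and 4 lay above WT pool 1, so the groups overlapped, and the difference was -0.25 (limma, adjusted p = 0.308). Mcm4, a subunit of the MCM2-7 helicase, was read at 7.21, 7.18, 7.25 and 7.27 in KO pools 1 to 4, against 6.98, 7.12, 7.03 and 7.21 in WT pools 1 to 4. KO pool 2 lay below WT pool 4, so the groups overlapped, and the difference was 0.15 (adjusted p = 0.435). The other helicase subunits Mcm2, Mcm3, Mcm5, Mcm6 and Mcm7 differed by -0.02, 0.13, 0.02, 0.02 and -0.05, and the GINS subunit gene Gins2 by 0.16. Cdc6, Cdt1, Cdc45 and Gins1, which load or activate the helicase, differed by -0.21, 0.04, -0.15 and -0.09.

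Of the DNA synthesis genes, Uhrf1, which brings the maintenance DNA methyltransferase to replicated DNA, was read at 5.04, 5.69, 5.04 and 5.86 in KO pools 1 to 4, against 5.36, 6.03, 6.07 and 6.03 in WT pools 1 to 4. WT pool 1 lay among the KO pools, and the difference of -0.47 (SE 0.22) was not called (limma, adjusted p = 0.335). Lig1, the ligase that joins Okazaki fragments, was read at 6.98, 7.15, 7.03 and 7.28 in KO pools 1 to 4, against 6.995, 6.81, 7.18 and 7.09 in WT pools 1 to 4. The sliding clamp gene Pcna averaged 9.71 ± 0.11 in KO and 9.67 ± 0.08 in WT (SD, n = 4 pools each) with a 95% interval of the difference from -0.15 to 0.23. The primase gene Prim1 differed by 0.07, the polymerase gene Pola1 by -0.03, the clamp loader gene Rfc3 by 0.03 and the flap nuclease gene Fen1 by -0.03. The second Fen1 probe set differed by 0.26.

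Of the nucleotide supply genes, Rrm2 alone had a gap over 1 in KO pool 4. Tyms, thymidylate synthase, was read at 5.70, 5.82, 5.72 and 6.32 in KO pools 1 to 4, against 5.55, 5.80, 6.02 and 5.38 in WT pools 1 to 4. Rrm1, the large subunit of ribonucleotide reductase, was read at 6.57, 6.92, 6.58 and 6.83 in KO pools 1 to 4, against 6.56, 6.58, 6.72 and 6.71 in WT pools 1 to 4, with a difference of 0.08. Rrm2, its cell cycle-regulated small subunit, had the pattern of the mitosis genes, with 6.90 in KO pool 4 against 5.35, 5.54 and 5.73 in KO pools 1 to 3. Its second probe set had a gap of 0.75 between KO pool 4 and the mean of the others, against 1.36 on the first. None of the 3 genes was called.

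Of 92 further cell cycle genes that were measured, 0 rose and 2 fell (limma), against 1.49% of all genes higher and 2.10% lower in KO. At an unadjusted p under 0.05 there were 14, against 15.3% of all genes, and the median difference was 0.02. Cenpa, the histone variant that marks centromeres, was read at 5.70, 6.01, 5.77 and 5.83 in KO pools 1 to 4, against 6.35, 6.45, 6.39 and 6.24 in WT pools 1 to 4. All KO pools lay below all WT pools. It fell by 0.53 (SE 0.09, limma, adjusted p = 0.00920), and KO pool 4 was not set apart for it. Rb1, the retinoblastoma protein that CDK4 and CDK6 inactivate, was read at 9.50, 9.32, 9.48 and 9.44 in KO pools 1 to 4, against 9.92, 9.85, 9.80 and 9.83 in WT pools 1 to 4. Its groups did not overlap either, and it fell by 0.41 (SE 0.08, adjusted p = 0.0145). A second, dimmer Rb1 probe set differed by 0.19 in the opposite direction, and the mean of both gave -0.11 and no call (limma, adjusted p = 0.667). Once the T cell marker mean was in the model, Cenpa and Rb1 differed by -0.59 and -0.41 and were not called (limma, adjusted p = 0.0584 and 0.131). That fit called 287 of all genes, against 797 without the term. KO pool 4 was the highest pool for 37 of the 92, against 16.8% of all genes. Its gap over the mean of the other KO pools had a median of 0.16 over the 92. The gap was at least 0.5 for 15 of them, against 2.29% of all genes. It was at least 1 for 2, the kinetochore genes Nuf2 and Spc24 (1.42 and 1.07), against 0.167% of all genes. For the mitotic transcription factor gene Foxm1 the gap was 0.85.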

How the data were processed

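The deposited log2 values of 41345 probe sets on 8 arrays were made by the authors with RMA in R 3.2.2, per the submitters' processing notes; the RMA package is not named there. Precision depends on the number of arrays and on each gene's spread between pools and signal level, and no reads were counted. Of the probe sets, 23521 had 1 gene symbol in the platform annotation and gave 22180 genes, 1814 had several symbols and 16010 were unlisted. KO and WT were compared with limma 3.58.1 in R 4.3.3 (lmFit, eBayes, two-sided, Benjamini-Hochberg over all genes, adjusted p under 0.05), tested on simulated data. The members, lists, alternatives and naming rule were chosen with earlier results of these data known. The rule named Paxip1, called members, the 4 smallest p of each role group, all G1 genes and called further genes. Other genes were named after their values were seen. Same-numbered pools correlated at r = 0.04 to 0.11 in their deviations from the group means, and the other pairings at -0.12 to 0.10. Numbers were not used as pairs, and whether same-numbered pools were handled together is unknown here. A fit with the number as a block is given below. Alternatives changed the probe set, genes tested, scaling, variance prior, weights, block, threshold, model terms and arrays used.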

Additional observations from a re-analysis of the deposited data

Results flagged for a closer look

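In each group of 4 pools the highest or lowest value was set against the range of the group, and a gap to the nearest pool above Dixon's 95% critical value was taken as a pool apart. Of 134 groups tested, for the members, Paxip1, Rb1, Cenpa and the means of the role groups, 10 were apart, and chance alone sets about 5% apart. That 5% holds for independent groups, and these are not independent, since the means are made from the members. No test is drawn from the count.

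KO pool 4 was the high pool in 6 of the 10. Of these, 3 were means of role groups and 3 were single genes that belong to those groups, so the 6 are not separate observations. Its means were 5.48 for the mitotic cyclins and kinases (other KO pools 4.49 to 4.54), 5.01 for the checkpoint and anaphase genes (3.94 to 4.10) and 5.05 for the spindle genes (4.06 to 4.16). Among single genes it was apart for Melk at 4.09, Ube2c at 6.14 and Nusap1 at 6.18, where the other KO pools reached 3.38, 4.33 and 4.85. KO pool 2 was apart for Ccnd1 at 4.27, above 3.84. Among WT pools, pool 3 was low for Mcm2 at 5.71 (others from 6.04), pool 1 for Uhrf1 at 5.36 (others from 6.03) and pool 2 for Ccnd2 at 9.94 (others from 10.06). Over all genes KO pool 4 was apart in this way, on the high side, for 0.857%.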

How the results depend on the processing

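Of the 56 members 1 was called over all pools. The count was 2 among genes above the median level, with an intensity trend and robust prior, and at an adjusted p under 0.10, and 0 by limma without moderation of the variance, without KO pools 1 and 2 and with the mean of T cell markers in the model (6 members had an unadjusted p under 0.05 in the fit of all pools). It ran from 1 to 2 when single pools were left out, with Prc1 added without KO pool 4. Cdk6 was called in 15 of 18 alternatives, with differences of 0.57 to 0.72 and adjusted p from 0.00298 to 0.0993. The count of all genes called, 797, was 303 without moderation, 320 without KO pools 1 and 2, 287 with T cell markers in the model, 1202 at the wider threshold, and 479 to 758 when single pools were left out (498 without KO pool 2, 530, 497 and 479 without WT pools 2, 3 and 4). The further cell cycle genes called, 2, were 1 with the mean over probe sets, 4 with the trend and robust prior, 1 without KO pools 1 and 2 and 0 with T cell markers in the model. The cause of these moves was not tested. With the replicate number as a block 666 genes were called, Cdk6 the one member among them, and no call on a member changed. The members' median, 0.04, ran from -0.08 without KO pool 4 to 0.18 with T cell markers in the model, and 17 uncalled differences changed sign without KO pool 4. Signs also changed for 13 uncalled differences without WT pool 2, 12 with T cell markers in the model and 11 without KO pools 1 and 2. Signal near or below the array median limits Hmmr, Bub1, Melk, Cenpf and Mcm10. Cdc6, Ccnd1, Kif23, Plk1, Tpx2 and Cdk1 averaged 3.77 to 3.94 over all pools, little above that median. For Kif23, KO pools 1 to 3 were read at 3.32, 3.73 and 3.44, so its gap in KO pool 4 starts from near that level.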

Other observations

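Ranked by how far KO pool 4 lay above every other pool of either genotype, the first 20 of all 22180 genes included 8 members and 1 further listed gene, Nuf2, and the first 100 included 15 members and 8 further listed genes. This ranking was made after the values were seen and describes 1 pool. The gene at its head was Prr11, on neither list, at 6.24 in KO pool 4, against 3.90 to 4.12 in the other KO pools and 3.86 to 4.21 in the WT pools. The mitotic kinesin gene Kif15 and the histone gene H2ac10 were also among the first 20, 0.79 and 0.93 above the next pool. Of the first 20, 11 were on neither list, and these also included Scn2b, Crisp3, C1qtnf6, Mir3066, Cd36, Pmch and Lalba. The other was Rgs13, a regulator of G protein signalling that was called higher in KO (limma, adjusted p = 0.000899), with 6.18 in KO pool 4 and 4.80 to 5.09 in the other KO pools, against 3.04 to 3.25 in the WT pools. Cd36 and Lalba were called higher in KO too (limma, adjusted p = 0.00797 and 0.0354).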
